A study of Mus musculus with 6 samples.

Results

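The 6 STAT genes described here, Stat2, Stat3, Stat4, Stat5a, Stat5b and Stat6, were chosen by their symbols from the 34245 genes of an RNA-seq table of mouse peripheral T-cell lymphoma (PTCL). RNA was taken from 3 independent PTCL (tumors 1, 2 and 3) that arose in lymph nodes of terminally ill FVB/N mice. The mice were heterozygous for the DNA methyltransferase gene Dnmt3b (Dnmt3b+/-). All 3 libraries belong to this single group, so the values are a description and no test between groups was made. Control T cells and the methylation data of the series were not analysed here, and the age of the mice was not used. Levels are given as FPKM, a read density corrected for exon length and library depth, which allows levels to be compared between genes. The reads behind each value were recovered from the FPKM at library depths of 30726570 reads for tumor 1, 18969988 for tumor 2 and 20770928 for tumor 3. Dnmt3b itself was low, at 0.975, 1.55 and 1.25 FPKM in tumors 1 to 3, over all its exons and without separating the alleles.

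STAT proteins are latent transcription factors that carry signals from cytokine receptors to the nucleus. A cytokine brings together its receptor chains, the Janus kinases bound to them phosphorylate STAT proteins, and STAT dimers then enter the nucleus and bind DNA, while proteins of the SOCS family and phosphatases limit the signal. In T cells, STAT2 acts in the response to type I interferon together with IRF9, STAT3 downstream of IL-6 type cytokines, STAT4 downstream of the cytokine that drives Th1 cells, STAT5A and STAT5B downstream of the cytokines that share the common gamma chain, and STAT6 downstream of the cytokine that drives Th2 cells.

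All 6 STAT genes were expressed above 0.2 FPKM in every tumor, as were 36.7% of all 34197 gene symbols. Stat6 had the highest mean, 24.3 ± 0.975 FPKM (SD, n = 3), followed by Stat4 with 21.1 ± 8.83 FPKM (SD, n = 3). Stat3 with 17.4 ± 2.66 and Stat2 with 17.3 ± 12.3 FPKM (SD, n = 3) had almost the same mean. Stat5b had 12.4 ± 1.5 and Stat5a 5.15 ± 0.697 FPKM (SD, n = 3). Of the neighbours in this order, only Stat5b and Stat5a did not overlap, since the lowest Stat5b value was 10.8 FPKM and the highest Stat5a value was 5.90 FPKM. The tumors of each other neighbouring pair overlapped, so these means did not separate the genes beyond their spread. The gene with the highest FPKM differed by tumor and was Stat6 in tumor 1, but Stat2 in tumor 2 and Stat4 in tumor 3, while Stat5a was the lowest STAT gene in each tumor. The background throughout is the 11190 genes whose mean reached 1 FPKM, among which the mean of Stat6 stood at percentile 88.5 and that of Stat5a at percentile 46.1. The median of the 6 means was 17.3 FPKM, against 5.70 FPKM for the background genes.

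**Figure D1:**
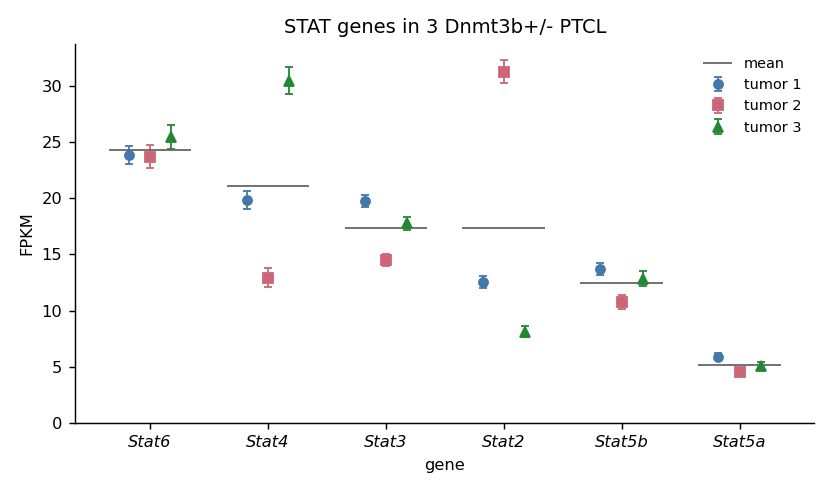
FPKM of each STAT gene in each tumor, with genes ordered by their mean (grey line). Points are single tumors and bars are exact Poisson 95% intervals of the recovered reads, which cover counting error only. Stat2 and Stat4 spread widely between tumors, and the Stat6 values lie between 23.7 and 25.5 FPKM.

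The highest tumor reached at least 2 times the lowest for 2 of the 6 STAT genes, Stat2 and Stat4, and for 34.4% of the background genes. This share of the STAT genes is near that of the background. The median ratio of the highest to the lowest tumor was 1.33 for the STAT genes and 1.68 for the background genes. Tumor 2 decided this count, since between tumors 1 and 3 alone 0 of the 6 genes reached a ratio of 2, and between tumors 1 and 2 only Stat2 did. The highest value was in tumor 1 for 3 STAT genes (Stat3, Stat5a and Stat5b), in tumor 2 for Stat2, and in tumor 3 for 2 (Stat4 and Stat6). Tumor 1 held the highest value of 50.6% of the background genes, tumor 2 of 33.7% and tumor 3 of 15.7%. The median background gene was 0.18 higher on the log2 scale in tumor 1 than in tumor 2 and 0.24 higher than in tumor 3. With median-of-ratios factors, which reduce this shift, Stat3, Stat5a and Stat5b were highest in tumor 3 in place of tumor 1, though Stat5a had 5.34 FPKM in each of these tumors, and the background shares became 36.9%, 36.7% and 26.4%. With equal totals these shares were 60.5%, 30.7% and 8.75%, and Stat6 was highest in tumor 1. The highest tumor of Stat2 and Stat4 was the same under these scalings.

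**Figure D2:**
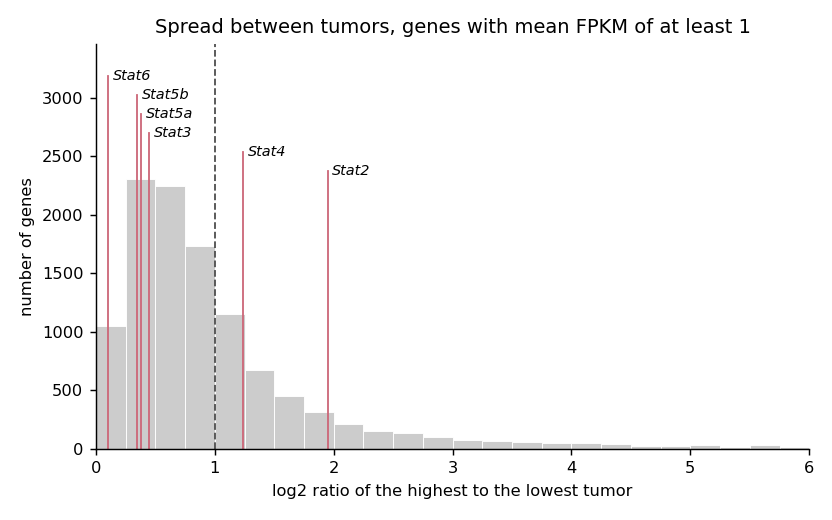
Number of background genes (mean FPKM of at least 1) by the log2 ratio of the highest to the lowest tumor, with the 6 STAT genes as lines and the ratio of 2 as a dashed line. The axis ends at 6, and Stat2 and Stat4 lie beyond the dashed line.

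STAT2 acts with IRF9 in the complex that switches on interferon-stimulated genes. Stat2 (ENSMUSG00000040033) lies on the plus strand of chromosome 10 from 128270559 to 128292849 of mm10. It stood at 12.5 FPKM (2284 reads) in tumor 1, at 31.3 FPKM (3518 reads) in tumor 2 and at 8.11 FPKM (998 reads) in tumor 3. Tumor 2 stood above the other tumors, and the 95% intervals for counting error did not overlap, with 30.3 to 32.3 FPKM in tumor 2 and 12.0 to 13.1 FPKM in tumor 1. The ratio of tumor 2 to tumor 3 was 3.86 (95% interval 3.60 to 4.14 for counting error), larger than that of 88.2% of the background genes. Relative to the median background gene the ratio was 3.70. Without tumor 2 the mean of Stat2 fell to 10.3 FPKM. Stat2 made up 32.0% of the summed FPKM of the 6 STAT genes in tumor 2, 13.1% in tumor 1 and 8.13% in tumor 3.

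**Figure D3:**
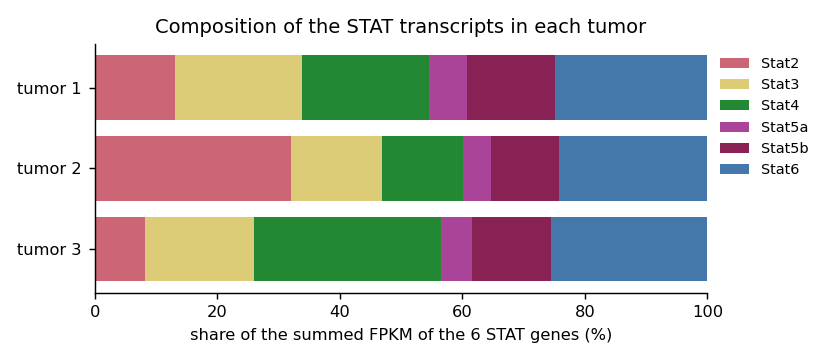
Share of each STAT gene in the summed FPKM of the 6 STAT genes, in percent, with a bar per tumor. Stat6 takes a similar share in each tumor, Stat2 is widest in tumor 2 and Stat4 in tumor 3.

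A list of 16 genes that act with STAT2 or are switched on by interferon was compared with Stat2. Of these, 15 passed a mean of 1 FPKM, and all 15 were highest in tumor 2, as was Stat2, against 33.7% of the background genes. Ifi44, which did not pass, was also highest there. The 15 were highest in tumor 2 with equal totals and with median-of-ratios factors too, against 30.7% and 36.7% of the background genes. The list is a choice from the many interferon-stimulated genes, made with earlier results of these data known. Its shares are therefore a description and no independent test of a link with Stat2. Among the 15, 12 reached a ratio of at least 2 between the highest and lowest tumor, against 34.4% of the background genes, with a median ratio of 3.65. Bst2, which encodes the antiviral protein tetherin, had 53.4, 459 and 138 FPKM in tumors 1, 2 and 3. Zbp1, a sensor of nucleic acids, had 42.0, 144 and 52.1 FPKM, and Irf7, a regulator of type I interferon genes, had 16.8, 132 and 36.7 FPKM. These genes were far higher in tumor 2 than in the other tumors. The antiviral genes Rsad2 with 0.653, 22.3 and 1.90 FPKM and Oasl1 with 0.849, 14.9 and 2.77 FPKM had the largest ratios of the list. Irf9, the DNA-binding partner of STAT2, varied less than Stat2, with 13.4, 19.3 and 16.4 FPKM. Tumors 1 and 3 were ordered differently in Stat2 and in most of the list. Stat2 was lowest in tumor 3, as were 37.4% of the background genes. Of the 15 genes, 11 were lowest in tumor 1, against 24.3%, and 4 in tumor 3. The receptor chains of type I interferon were also highest in tumor 2, Ifnar1 with 19.0, 25.9 and 10.9 FPKM and Ifnar2 with 19.1, 42.1 and 25.2 FPKM.

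**Figure D4:**
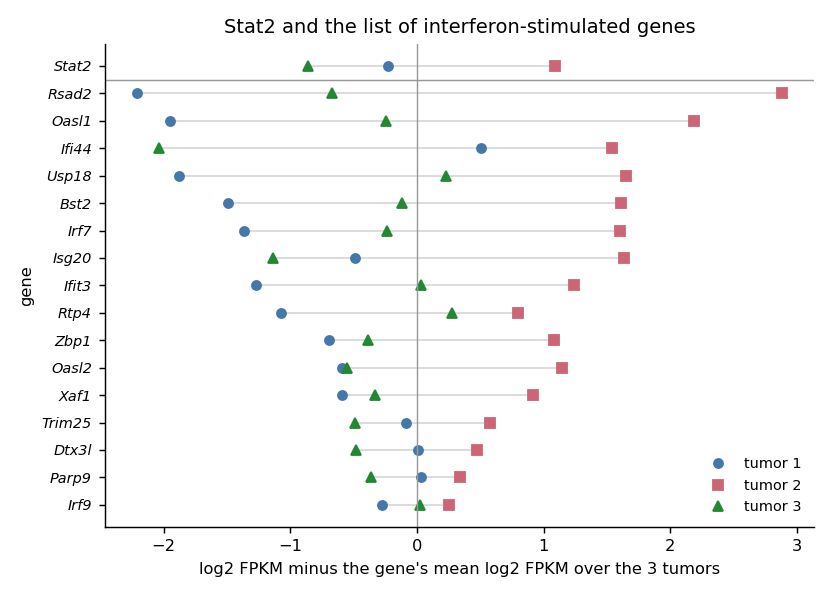
Log2 FPKM of Stat2 and of the 16 genes of the interferon list in each tumor, relative to the mean log2 FPKM of the gene over the 3 tumors. Genes below the line are ordered by the ratio of the highest to the lowest tumor, and tumor 2 lies to the right in every gene.

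Most markers of pancreatic acinar, stromal and NK cells were also highest in tumor 2, though the acinar and stromal sums differed strongly between tumors 1 and 3 too. All 8 pancreatic acinar markers were highest in tumor 2, against 33.7% of the background genes, with summed FPKM of 87.0, 440 and 0.657 in tumors 1, 2 and 3 and Ctrb1 (33.9, 198 and 0.0494 FPKM, without a read in tumor 3) as the most abundant. The stromal markers summed to 10.2, 42.1 and 0.349 FPKM, with Col1a1 (1.63, 15.5 and 0.315 FPKM) the most abundant. Of the 5, 4 were highest in tumor 2, with Dcn as the exception. Of these 4, 3 passed a mean of 1 FPKM only through tumor 2, and Pdgfrb, with a mean of 0.659 FPKM, did not pass. Their highest tumor was therefore not compared with the background. The NK cell markers summed to 0.955, 38.7 and 3.60 FPKM, with Klre1 (0.242, 32.2 and 0.0551 FPKM), which passed that mean only through tumor 2, the most abundant, while Ncr1 had 0.380, 0.205 and 0.125 FPKM. Their part in the level of Stat2 was not tested. The RNA came from bulk tissue, so fewer cells of a type and less RNA per cell cannot be told apart.

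Stat2 and the interferon list shared their highest tumor, while 4 of the 15 genes also shared the lowest tumor of Stat2. The bases upstream of the transcript starts were searched on either strand for the core of the interferon-stimulated response element, GAAANNGAAA. Sequences were taken from RefSeq promoters of GRCm38.p6, the C57BL/6J reference and not the FVB/N genome, and the 250 bases before each start were used. This motif was found in 2.98% of all 32851 promoters. The 6 STAT genes had 9 promoters, and 2 of them held the motif, that of Stat2 and the promoter at an inner start of Stat4. In the interferon list, 3 of the 12 genes with a promoter held it, against 3.46% of all gene symbols with a promoter. It was also held by Socs1, which is 1 of the 8 STAT5 targets and of the 10 inhibitors with a promoter, by Il4 among the 8 STAT6 targets, and by 0 of the receptor chains, Janus kinases, STAT3 targets and STAT4 targets. The stretch of Stat2 lies outside annotated exons and genes, that of Stat4 within an intron of Stat4, and those of Rsad2, Ifit3 and Bst2 outside annotated genes. They are shown to compare the motif of these STAT genes with that of interferon-stimulated genes, with the motif, or its reverse complement on the other strand, in capitals.
Stat2 chr10:128270248-128270497 plus strand: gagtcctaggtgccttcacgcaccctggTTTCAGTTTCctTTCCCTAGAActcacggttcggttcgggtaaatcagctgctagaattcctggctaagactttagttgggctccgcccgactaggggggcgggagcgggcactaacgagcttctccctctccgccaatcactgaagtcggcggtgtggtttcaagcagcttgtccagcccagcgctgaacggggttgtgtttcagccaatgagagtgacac
Stat4 chr1:52008133-52008162 plus strand: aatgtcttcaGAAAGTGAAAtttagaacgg
Rsad2 chr12:26456553-26456582 minus strand: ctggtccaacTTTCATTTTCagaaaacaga
Ifit3 chr19:34583363-34583426 plus strand: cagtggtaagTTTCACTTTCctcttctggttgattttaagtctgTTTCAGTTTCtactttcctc
Bst2 chr8:71537577-71537612 minus strand: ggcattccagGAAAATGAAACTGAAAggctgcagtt
In Stat2 the first capitals begin 222 bases before the start and are the motif on the minus strand. The other capitals, 210 bases before the start, match TTCNNNNGAA, a spacing preferred by STAT6, which was found in 5.85% of the promoters and in no other STAT promoter. Ifit3 holds the motif at 2 places, and the capitals of Bst2 are 2 overlapping matches, which begin 130 and 124 bases before the start, the farther of which also overlaps a match of TTCNNNGAA. The palindrome TTCNNNGAA that other STAT dimers bind was found in 7.02% of the promoters and in 0 of the 9 STAT promoters. A match of letters is a description, and binding was not measured.

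STAT4 carries signals toward Th1 differentiation and interferon gamma. Stat4 (ENSMUSG00000062939), on the plus strand of chromosome 1 from 51987148 to 52107189, stood at 19.9 FPKM (2363 reads) in tumor 1, at 12.9 FPKM (950 reads) in tumor 2 and at 30.5 FPKM (2450 reads) in tumor 3. Tumor 3 was the highest and tumor 2 the lowest, in the opposite order to Stat2 for these tumors. The ratio of tumor 2 to tumor 3 was 0.425 (95% interval 0.394 to 0.458 for counting error), and the ratio of the highest to the lowest tumor, 2.36, was larger than that of 75.4% of the background genes. The 95% intervals of the 3 tumors did not overlap. Stat2 divided by Stat4 gave 0.632 for tumor 1, 2.42 for tumor 2 and 0.266 for tumor 3, the largest spread among the 15 pairs of STAT genes.

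A mean of 1 FPKM was reached by 7 of the STAT4 targets. Among them, 4 peaked in tumor 1 (background share 50.6%), 3 in tumor 2 (33.7%) and 0 in tumor 3, which had the most Stat4. With 15.7% of the background genes highest in tumor 3, a count of 0 among 7 genes says little, and with median-of-ratios factors it was 1. Among the 7 genes, 5 reached a ratio of at least 2, against 34.4% of the background genes, and 1 of them, Il12rb2, passed the mean only through tumor 2. Il18r1, a chain of the IL-18 receptor, was the most abundant with 69.9, 60.9 and 50.003 FPKM in tumors 1, 2 and 3. Tbx21, which encodes the Th1 regulator T-bet, had 7.10, 34.3 and 26.3 FPKM, and Il18rap had 15.5, 15.0 and 15.3 FPKM. Tbx21 was thus lowest in tumor 1, and Il18rap hardly differed between tumors. The largest ratios were those of Il12rb2, a chain of the IL-12 receptor, with 0.935, 5.74 and 0.330 FPKM, and of Gadd45g with 22.8, 2.83 and 5.95 FPKM. Ifng, which encodes interferon gamma, had 8.49 FPKM in tumor 1 and 1.10 and 1.12 FPKM in tumors 2 and 3. Like Stat4, all 7 B cell markers found were lowest in tumor 2, against 38.3% of the background genes, with summed FPKM of 61.3, 14.7 and 109.9 and Cd79a (23.1, 7.31 and 49.0 FPKM) the most abundant. Their part in the level of Stat4 was not tested.

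STAT6 is activated by IL-4 and directs Th2 genes. Stat6 (ENSMUSG00000002147), on the plus strand of chromosome 10 from 127642986 to 127660957, stood at 23.9 FPKM (3227 reads) in tumor 1, at 23.7 FPKM (1979 reads) in tumor 2 and at 25.5 FPKM (2328 reads) in tumor 3. In the deposited values it was the most even of the STAT genes, with a ratio of the highest to the lowest tumor of 1.07, and only 1.59% of the background genes had a smaller ratio. This depends on the scale, since with equal totals the ratio was 1.11, and with median-of-ratios factors it was 1.25, above those of Stat5a (1.16) and Stat5b (1.24). Its share of the summed STAT FPKM was 25.0%, 24.2% and 25.5% in tumors 1, 2 and 3. Stat4 divided by Stat6 was 0.832, 0.546 and 1.20, so Stat4 exceeded Stat6 in tumor 3 alone.

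Of the 9 listed targets of STAT6, 3 were above 0.2 FPKM in every tumor, against 36.7% of all gene symbols. Il4ra, the IL-4 receptor chain, had 35.0, 28.1 and 37.4 FPKM in tumors 1, 2 and 3 and varied little, as did Stat6. The chemokine receptor gene Ccr4 had 18.2, 10.7 and 1.43 FPKM, and Gata3, the Th2 regulator, had 5.06, 2.31 and 4.55 FPKM. Il4 had 3.50 FPKM from 132 reads in tumor 1, no read in tumor 2 and 2 reads in tumor 3, and Il1rl1, the IL-33 receptor, had 3.78, 0.0765 and 0.335 FPKM. Il4 and Il1rl1 passed a mean of 1 FPKM only through tumor 1, so their order between tumors was set by that filter. Ccr4 was highest in tumor 1, whereas Stat6 was nearly even. Tumor 1 was also the highest in Cd4, with 28.4, 4.28 and 8.22 FPKM, and in the summed macrophage and monocyte markers, with 343, 115 and 34.9 FPKM. Their part in the levels of these genes was not tested. Il24 had no read in any tumor.

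Stat5a and Stat5b are a closely related pair that acts downstream of IL-2 and IL-7, and with Stat3 they lie side by side on chromosome 11. Stat5b (ENSMUSG00000020919), on the minus strand from 100780731 to 100850724, stood at 13.7, 10.8 and 12.9 FPKM in tumors 1 to 3 (2328, 1132 and 1479 reads). Stat5a (ENSMUSG00000004043), on the plus strand from 100859351 to 100885169, stood at 5.90, 4.52 and 5.02 FPKM (1293, 612 and 744 reads). Stat3 (ENSMUSG00000004040), which carries signals of IL-6 and IL-10, lies on the minus strand from 100885098 to 100939540 and stood at 19.8, 14.5 and 17.8 FPKM (5787, 2622 and 3518 reads). In each of these genes tumor 1 was the highest and tumor 2 the lowest in the deposited values, with ratios of 1.27 for Stat5b, 1.30 for Stat5a and 1.36 for Stat3. Relative to the median background gene, the ratio of tumor 1 to tumor 2 was 1.12 for Stat5b, 1.15 for Stat5a and 1.21 for Stat3.

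Stat5a divided by Stat5b was 0.431, 0.420 and 0.391 in tumors 1, 2 and 3, and Stat3 divided by Stat5b was 1.45, 1.35 and 1.38. These ratios within a library do not depend on its scale, and Stat3 with Stat5b had the smallest spread of the 15 pairs, 1.07 between the highest and the lowest tumor. Sequence and position limit how far the 3 genes can be told apart. Of the 150-base stretches in annotated Stat5a transcripts, 2.21% are shared with Stat5b transcripts, and 3.16% of those in Stat5b transcripts with Stat5a. For 50-base stretches the shares are 8.21% and 11.0%. Some reads could thus match either gene, and whether they passed the mapping quality limit of the authors was not tested. Stat5a and Stat3 run toward each other and share 72 exon bases, 1.01% of the exon bases of Stat5a and 0.756% of those of Stat3, where reads cannot be told apart unless the counting used the strand, which is not given in the sources used here. Between Stat5b and Stat5a lie 8626 bases.

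The median ratio of the highest to the lowest tumor was 2.49 for the STAT5 targets, above the ratios of Stat5a and Stat5b. All 11 were above 0.2 FPKM in every tumor, against 36.7% of all gene symbols, and 8 reached a ratio of at least 2, against 34.4% of the background genes. With equal totals 6 of the 11 did, against 39.4% of the background genes, and with median-of-ratios factors 9 did, against 32.5%. Pim2 and Pim1, survival kinases, had 41.6, 81.6 and 91.0 FPKM and 93.1, 37.4 and 73.3 FPKM in tumors 1, 2 and 3, and the survival gene Bcl2 had 55.7, 54.7 and 73.5 FPKM. Il2ra, the high-affinity IL-2 receptor chain, had 43.2, 9.98 and 1.96 FPKM, and Socs2 had 10.2, 5.80 and 0.642 FPKM. Il2ra and Socs2 were high in tumor 1 and low in tumor 3, whereas Stat5a and Stat5b differed by less than 2 times between any tumors. Of the STAT3 targets, 8 of 10 were above 0.2 FPKM in every tumor, against the same 36.7%, and 3 of the 8 that passed a mean of 1 FPKM reached a ratio of at least 2, near the 34.4% of the background genes. Socs3, a feedback inhibitor, had 99.999, 14.3 and 47.8 FPKM, in the same order of tumors as Stat3 in the deposited values but with a wider spread. Mcl1, which counters apoptosis, had 87.2, 44.7 and 56.0 FPKM, and Junb, a component of AP-1, had 35.4, 37.1 and 31.0 FPKM. Il10, a cytokine that dampens inflammation, had 2.43, 0.201 and 0.441 FPKM and passed the mean only through tumor 1. The palindrome TTCNNNGAA bound by STAT dimers was found upstream of 2 of the 8 STAT3 targets with a promoter, Socs3 and Bcl6, against 8.13% of all gene symbols with a promoter. It was also found upstream of 3 of the 8 STAT4 targets, 3 of the 16 receptor chains and 2 of the 12 interferon-list genes with a promoter, of 1 of the 8 STAT5 targets and 1 of the 10 inhibitors, and of 0 of the 8 STAT6 targets and 0 of the 4 Janus kinases. Bcl6, a transcriptional repressor, held 4 matches over 2 promoters, and had 1.12, 1.46 and 0.992 FPKM. The single match of Socs3, the more variable of these genes, lies in an annotated Socs3 intron and is shown with the motif in capitals.
Socs3 chr11:117969502-117969530 minus strand: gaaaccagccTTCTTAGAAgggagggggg

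Tumor 1, where Stat3 and Socs3 were highest in the deposited values, also had the highest macrophage and monocyte markers. They summed to 343, 115 and 34.9 FPKM in tumors 1, 2 and 3, with Lyz2 (215, 33.1 and 20.3 FPKM) the most abundant. Of the 8, 7 were highest in tumor 1, against 50.6% of the background genes, but 4 of these (Adgre1, Cd14, Fcgr1 and Itgam) reached a mean of 1 FPKM only through tumor 1, and Cd68 was highest in tumor 2. The neutrophil markers summed to 37.7, 1.49 and 16.2 FPKM, with S100a9 (22.6, 1.01 and 10.4 FPKM) the most abundant and no read of Elane in any tumor. Of the endothelial markers, which summed to 13.6, 12.8 and 5.13 FPKM, only Pecam1 (12.2, 10.9 and 4.86 FPKM) passed a mean of 1. Their part in the levels of Stat3 and Socs3 was not tested. The T cell markers, which define the labelled tumor type, were present in each tumor and summed to 1325, 1069 and 1421 FPKM, with Cd8b1 (435, 166 and 443 FPKM) the most abundant. The lower sum of tumor 2 went with Cd8a (259, 122 and 218 FPKM) and Cd8b1. Of the 10 T cell markers, 5 were highest in tumor 2, against 33.7% of the background genes. Lowest there were 4 (Cd8a, Cd8b1, Cd2 and Cd247), against 38.3%. The list median was 94.5, 103 and 98.1 FPKM.

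Upstream of the STAT proteins, 20 of 21 receptor chains were above 0.2 FPKM in every tumor, against 36.7% of all gene symbols. Of the 19 that passed a mean of 1 FPKM, 14 reached a ratio of at least 2, against 34.4% of the background genes, and Il12rb2 and Il9r passed only through their highest tumor. Il2rb, the shared chain of the IL-2 and IL-15 receptors that activate STAT5, was the most abundant, with 162, 526 and 435 FPKM in tumors 1, 2 and 3. The common gamma chain gene Il2rg had 225, 296 and 344 FPKM, and Ifngr1, a chain of the interferon gamma receptor, had 64.1, 182 and 72.3 FPKM. Il7r, the IL-7 receptor chain, had the widest spread, with 30.7 and 64.5 FPKM in tumors 1 and 3 and 0.641 FPKM from 57 reads in tumor 2. Il7r and Il2rb thus differed more between tumors than Stat5a and Stat5b did. All 4 Janus kinases were expressed in every tumor, and 0 of 4 reached a ratio of 2, although Jak1 did with median-of-ratios factors. Jak1, which serves most of these receptors, had 64.3, 117 and 128 FPKM, Jak3, the partner of the common gamma chain, 48.4, 50.2 and 37.5, Jak2 17.9, 27.8 and 17.2, and Tyk2, a partner of the interferon and IL-12 receptors, 12.0, 13.0 and 7.64. Jak1 was lowest in tumor 1, unlike Stat3, Stat5a and Stat5b in the deposited values.

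Of 17 inhibitors of this signaling, all were above 0.2 FPKM in every tumor, against 36.7% of all gene symbols, and 5 reached a ratio of at least 2, near the 34.4% of the background genes. Tumor 1 was the highest for 13 of the 17, against 50.6% of the background genes, and for 9 with median-of-ratios factors, against 36.9%. The phosphatase gene Ptpn6 had 65.0, 187 and 125 FPKM in tumors 1, 2 and 3, and Ptprc, which encodes CD45, had 90.4, 87.4 and 75.3 FPKM. Socs3 and Socs2, with the values given above for targets of STAT3 and STAT5, had the largest ratios of the inhibitors. The median ratio of the 17 was 1.53, against 1.68 for the background genes.

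**Figure D5:**
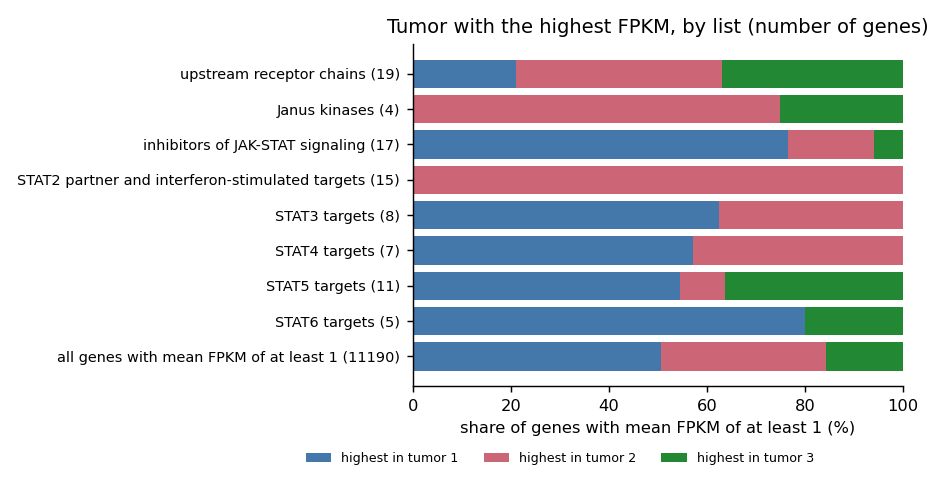
Share of genes with their highest FPKM in each tumor, in percent, for the 8 lists of the STAT pathway and for all background genes, with the number of genes in parentheses. Il4 and Il1rl1 of the STAT6 targets passed the mean only through tumor 1. The interferon list is highest in tumor 2 throughout, and 50.6% of the background genes are highest in tumor 1.

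The genes most like each STAT gene over the 3 tumors were found among 6150 genes that passed a mean of 5 FPKM outside the STAT family, by the largest difference in log2 FPKM centred on the mean. For Stat2 they were Unc93b1, a chaperone of nucleic acid sensing Toll-like receptors, with a difference of 0.063, Gem with 0.097 and Entpd1 with 0.11. Only 2 genes lay within 0.1 of Stat2 and 6 within 0.1 of Stat4, while 267 lay that close to Stat6, 293 to Stat3, 308 to Stat5b and 343 to Stat5a. The closest to Stat4 were Mrps28, Taf9b and Rps25, to Stat3 Leprot, Mybbp1a and Ndufb6, to Stat5a Tox4, Naa40 and Psmc3, to Stat5b Sem1, Esd and Bloc1s6, and to Stat6 Gm26602, Jmjd8 and AC163623.3. With 3 samples such likeness is only a description.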

How the data were processed

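RNA-seq used paired-end reads of 150 bases. After trimming, the authors used STAR to align reads to mm10, and SeqMonk to quantify those above a mapping quality limit as linear FPKM for each tumor. Such values are no counts and were given no count model. For a gene with no read, the table holds the value of 0.9 read. Reads were recovered from this value and the merged exon lengths of GENCODE M21, found for 99.6% of genes, of which 93.4% to 93.6% gave whole reads within 0.05. Exact Poisson intervals cover counting error only. Of genes sharing a symbol, that with the highest mean was kept. Genes were named by rule: in each list the 3 with the highest mean, the 2 with the largest ratio, the most abundant marker, and the 3 most like each member. Adgre1, Bcl6, Cd14, Cd2, Cd247, Cd8a, Dcn, Fcgr1, Ifi44, Il9r, Irf9, Ifnar1, Ifnar2, Ifng, Ncr1, Cd68, Elane, Itgam, Pdgfrb, Socs1 and Il24 were named after their values were seen. Ifit3 was named because its promoter held the interferon motif. Members and lists were chosen with earlier results of these data known. The 8 pathway lists hold 89 genes, 7 of them in more than 1 list. Ighm was not used here. The recovery of reads, the ratios, the median-of-ratios factors and the likeness were tested on simulated data. These data were built with the same exon lengths and the same 0.9 read, so those settings were not tested. The motif search and the shared stretches were not simulated. Alternatives were 2 other scalings, folds, filters, an added FPKM and each tumor left out. Python 3.11.15, NumPy 2.4.6, pandas 2.3.3 and SciPy 1.17.1 were used.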

Additional observations from a re-analysis of the deposited data

How the results depend on the processing

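Of 74 values recomputed under alternatives, 68 moved by less than the spread between tumors or, for counts, by at most 1.5 times. Leaving out a single tumor cannot move a mean by as much as that spread. For those means the outcome was therefore fixed in advance and says nothing about how stable they are. The number of STAT genes at a ratio of at least 2 was 2 under other scalings, at a ratio of 1.5 and with 1 FPKM added, and ranged from 0 to 2 when each tumor was left out in turn, 0 without tumor 2 and 1 without tumor 3. With median-of-ratios factors 0 STAT genes were highest in tumor 1, as were 36.9% of the background genes, and 5 in tumor 3, as were 26.4%, although Stat5a had 5.34 FPKM in each of these tumors. With equal totals 1 was highest in tumor 3. These scalings change the level of a whole tumor by their construction. With median-of-ratios factors 1 Janus kinase reached a ratio of 2. The share of background genes at that ratio was 32.5% with median-of-ratios factors and 39.4% with equal totals. It was 29.5% of all genes without a filter and 27.2% of genes with a mean of at least 5 FPKM. No paired analysis was possible because there is a single group of tumors and the results come from no test. Depth limits genes with few reads, such as Il4 outside tumor 1, while every STAT value rests on at least 612 reads.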

Other observations

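A list of 18 cytokine genes that act through STAT proteins was written after other values had been seen, and its values are given without a test. A mean of 1 FPKM was reached by 4 of the 18, as it was by 11190 of all 34197 gene symbols. All 4 were highest in tumor 1, against 50.6% of the background genes, but Il4 and Il10 passed only through tumor 1. Above 0.2 FPKM in every tumor were 4 of the 18, against 36.7% of all gene symbols. Osm, a cytokine of the IL-6 family that is also a STAT5 target, was the most abundant with 12.5, 2.53 and 3.11 FPKM in tumors 1, 2 and 3. The list holds 3 of the many type I interferon genes, and their few reads were in tumor 2, where Stat2 was highest. Ifna4 had 13 reads in tumor 2 and 0 in tumors 1 and 3, Ifna2 had 9 reads in tumor 2 and 0 in the others, and Ifnb1 had 2 reads in tumor 2 and 0 in the others. Il2, an activator of STAT5, had 9, 0 and 1 reads, and Il6, an activator of STAT3, had 10, 0 and 1 reads. Il15 was the most even of the genes with reads in every tumor, with 0.446, 0.396 and 0.405 FPKM.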
